A study of Mus musculus with 8 samples.

Results

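The 10 genes described here encode major proteins of neutrophil granules and of the neutrophil cytosol: Mpo, Elane, Prtn3, Ctsg, Ltf, Camp, Ngp, Mmp8, S100a8 and S100a9. They were chosen by gene symbol, and all 10 were found among the 48440 genes of the count table through GENCODE M21 on GRCm38. Mpo, Elane, Prtn3 and Ctsg are primary granule genes. Ltf, Camp and Ngp are secondary granule genes. Mmp8 is placed in secondary or in tertiary granules by different accounts and is shown apart. S100a8 and S100a9 encode calprotectin, which is cytosolic and not a granule protein.

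A developing neutrophil makes its granules in sequence. Primary (azurophil) granules are filled in promyelocytes, secondary (specific) granules in myelocytes and metamyelocytes, and tertiary (gelatinase) granules in band cells, so that each set of transcripts marks a stage of maturation. The liver is a main site of blood formation before birth, and the newborn mouse liver still holds haematopoietic cells.

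RNA was sequenced from the whole liver of 8 newborn CD1 mice. The 4 knockout pups carried a germline deletion of Myo5b, which encodes an actin motor of membrane recycling, and the 4 control littermates were heterozygous or wildtype, which the labels do not separate. The deletion is present in every cell type, blood-forming cells included. Pups were 3 to 8 days old, and the age, sex and litter of each pup are not in the labels used here. Each library is 1 animal and holds 14228268 to 18398039 counts. Knockout livers are numbered 275 to 278 and control livers 279 to 282. Levels are CPM, that is read counts scaled to a common library total by TMM, and tests are edgeR's quasi-likelihood test over all 18274 genes that passed a low-count filter, with an adjusted p under 0.05 as the threshold for a call.

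All 10 genes passed the filter. None was called higher in knockout livers, Ltf and Mmp8 were called lower, and 8 were not called, with adjusted p from 0.208 to 0.928. Over all genes tested, 20.7% were called, 9.27% higher and 11.4% lower, so 2 of 10 is near the background. The median log2 fold change of the 10 genes was -0.03, beside 0.01 over all genes tested, with 5 genes above 0 and 5 below. For Mmp8 the 4 knockout values all lay below the 4 control values, and for the other 9 genes the groups overlapped, against 23.6% of all genes tested without overlap. In bulk liver RNA, fewer neutrophil-lineage cells and less transcript per cell cannot be told apart.

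**Figure D1:**
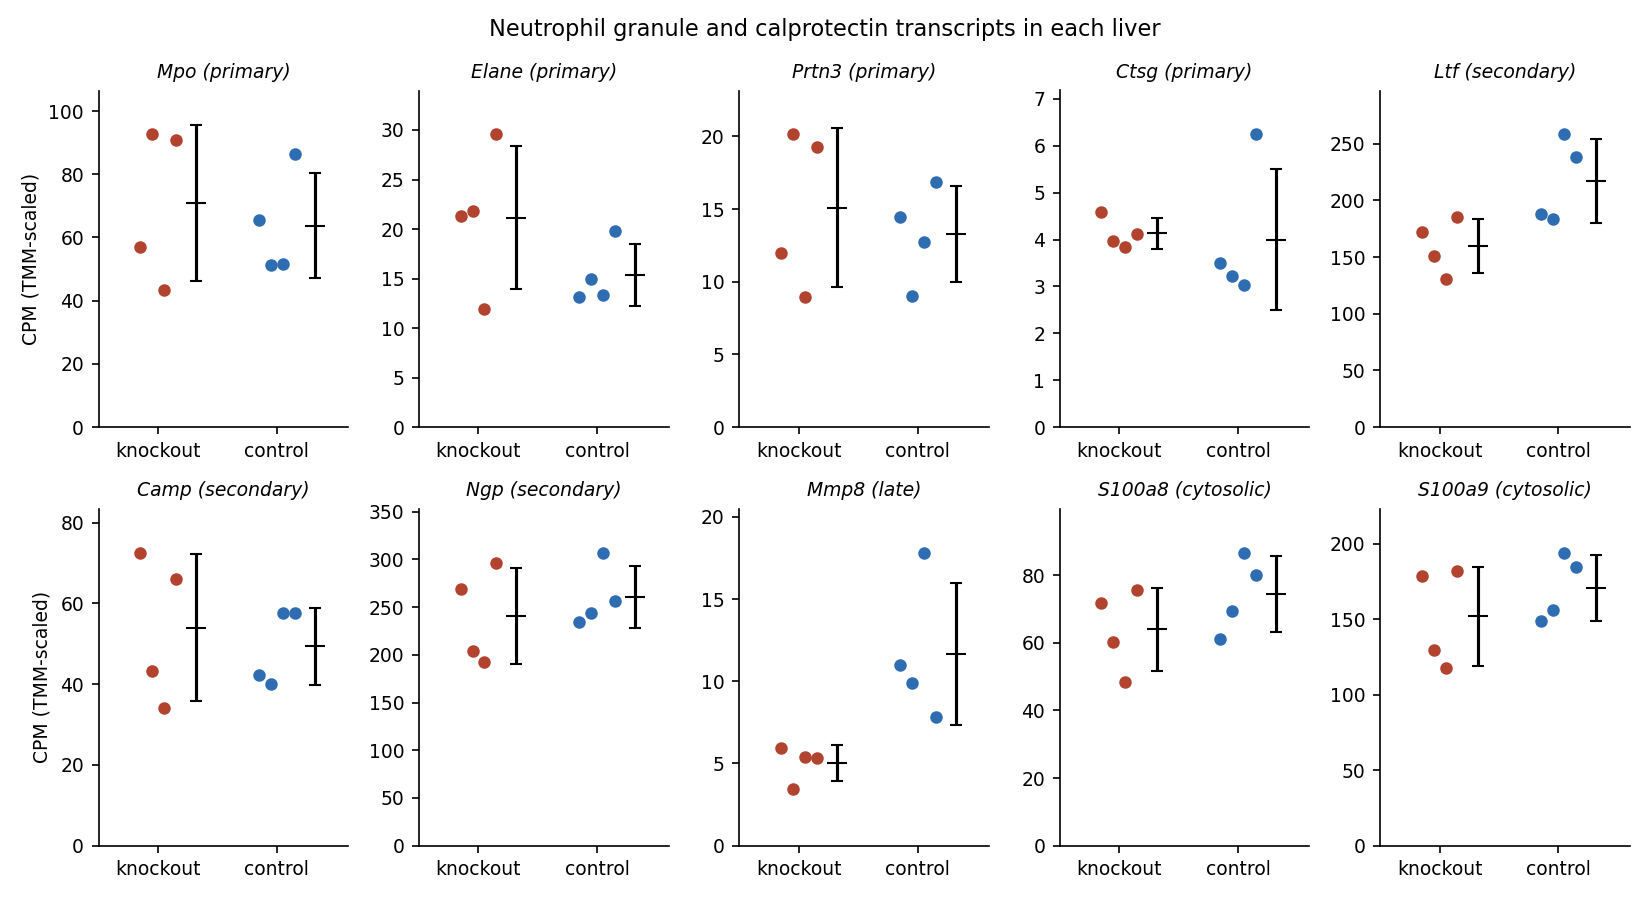
Level of each of the 10 genes in CPM (TMM-scaled, vertical axis from 0) in the 4 knockout livers (red) and the 4 control livers (blue), with the mean and SD of each group in black. Points run in order of animal number, 275 to 278 and 279 to 282. The groups are separate for Mmp8 (knockout at most 5.92 CPM, control at least 7.85 CPM) and overlap for the other 9 genes.

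None of the primary granule genes was called, and for each of them the knockout and control livers overlapped. Mpo, which encodes the myeloperoxidase that makes hypochlorous acid (chr11:87793581-87804413, plus strand), had 56.9, 92.6, 43.4 and 91.0 CPM in knockout livers 275 to 278, against 65.5, 51.3, 51.5 and 86.5 CPM in control livers 279 to 282. The groups overlapped over nearly their whole range, and knockout livers 276 and 278 held the highest values. Mpo averaged 71.0 ± 24.7 CPM in knockout livers and 63.7 ± 16.6 CPM in control livers (SD, n = 4 each), a log2 fold change of 0.15 (SE 0.30, 95% interval -0.57 to 0.88, adjusted p = 0.782).

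Elane, which encodes neutrophil elastase (chr10:79886247-79888215, plus strand), had 21.3, 21.8, 11.96 and 29.6 CPM in knockout livers, against 13.1, 14.95, 13.4 and 19.8 CPM in control livers. In 3 knockout livers it was above every control liver, and in knockout liver 277 it was below every control liver. The log2 fold change was 0.47 (SE 0.24, 95% interval -0.06 to 0.99, adjusted p = 0.208). Elane was called higher without knockout liver 277 (log2 fold change 0.66, adjusted p = 0.0156) and with no low-count filter (0.47, adjusted p = 0.0196).

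Prtn3, which encodes proteinase 3 and lies beside Elane (chr10:79874476-79883174, plus strand), had 12.01, 20.1, 8.95 and 19.3 CPM in knockout livers, against 14.5, 9.05, 12.8 and 16.8 CPM in control livers. Knockout liver 277 was the lowest of the 8 here too, as it was for Mpo and Elane. The groups overlapped, with a log2 fold change of 0.18 (SE 0.27, 95% interval -0.40 to 0.77, adjusted p = 0.694). Exons of Plppr3 lie on the opposite strand over Prtn3, and Plppr3 held 51 to 105 counts per liver. It is not known whether the counting used strand, so the level of Prtn3 is uncertain by an amount that was not measured. The gene opposite Mpo, Gm11505, had 1 count in knockout liver 278 and 0 elsewhere.

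Ctsg, which encodes the serine protease cathepsin G (chr14:56099881-56102574, minus strand), had 4.58, 3.96, 3.84 and 4.13 CPM in knockout livers, against 3.51, 3.22, 3.03 and 6.24 CPM in control livers. The 4 knockout livers lay close together, above 3 control livers and below control liver 282. Group means were 4.13 ± 0.324 CPM in knockout livers and 4.00 ± 1.51 CPM in control livers (SD, n = 4 each), a log2 fold change of 0.05 (SE 0.27, 95% interval -0.53 to 0.63, adjusted p = 0.928).

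The promoters of the 4 primary granule genes shared a short motif. The 250 bases before the RefSeq transcription start (GRCm38.p6, matched for all 10 genes) were searched on both strands for GAGGAAG, a sequence bound by the myeloid factor PU.1, and for TTGCNNAA, a sequence bound by C/EBP factors. GAGGAAG was present in 4 of 4 primary granule promoters, 0 of 3 secondary granule promoters, the Mmp8 promoter and 1 of 2 calprotectin promoters, beside 10.4% of 27025 mouse promoters. TTGCNNAA was present in 0 of 4 primary granule promoters, 2 of 3 secondary granule promoters, the Mmp8 promoter and 1 of 2 calprotectin promoters, beside 9.55% of all promoters. The Myb motif TAACNG was in 2 of 4 primary granule promoters, 0 of 3 secondary granule promoters, the Mmp8 promoter and 0 of 2 calprotectin promoters, beside 19.8% of all. No matches overlapped one another. These are matches of letters in this window, not measured binding. Parts of some windows lie within exons annotated by GENCODE M21, in Mpo and Camp among others, so not all of the searched sequence is upstream. The stretches of Elane (chr10:79886162-79886246, plus strand) and Prtn3 (chr10:79879517-79879613, plus strand) that hold the match nearest the start, 85 and 95 bases before it, are shown because they put the same letters in neighbouring protease genes. They stop where GENCODE M21 annotates an exon, and capitals mark GAGGAAG.
Elane: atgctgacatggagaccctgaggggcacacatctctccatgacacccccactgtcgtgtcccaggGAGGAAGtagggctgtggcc
Prtn3: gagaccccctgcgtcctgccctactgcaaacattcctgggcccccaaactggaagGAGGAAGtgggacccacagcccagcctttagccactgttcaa

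Of the secondary granule genes, Ltf was called lower in knockout livers, and Camp and Ngp were not called. Ltf, which encodes the iron-binding protein lactoferrin (chr9:111019271-111042767, plus strand), had 172, 151, 131 and 185 CPM in knockout livers, against 188, 183, 258 and 238 CPM in control livers. The groups overlapped only between knockout liver 278 (185.2 CPM) and control liver 280 (183.4 CPM). Ltf averaged 160 ± 23.9 CPM in knockout livers and 217 ± 36.9 CPM in control livers (SD, n = 4 each), a log2 fold change of -0.44 (SE 0.13, 95% interval -0.72 to -0.16, adjusted p = 0.0265). The call was lost with library size as the only scaling (-0.38, adjusted p = 0.0738) and without knockout liver 276 (-0.42, 0.0797), knockout liver 277 (-0.36, 0.0602), control liver 281 (-0.35, 0.0710) or control liver 282 (-0.39, 0.0725).

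Camp, which encodes the precursor of the cathelicidin antimicrobial peptide (chr9:109847379-109849617, minus strand), had 72.5, 43.3, 34.2 and 66.0 CPM in knockout livers, against 42.2, 40.0, 57.5 and 57.6 CPM in control livers. Knockout livers held both the lowest and the highest values of the 8. The log2 fold change was 0.13 (SE 0.26, 95% interval -0.49 to 0.74, adjusted p = 0.790). Ngp, which encodes neutrophilic granule protein, a cystatin-related protein (chr9:110419747-110423012, plus strand), had 269, 204, 192 and 296 CPM in knockout livers, against 234, 244, 307 and 257 CPM in control livers. Its groups overlapped, with a log2 fold change of -0.12 (SE 0.14, 95% interval -0.41 to 0.18, adjusted p = 0.617).

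The TTGCNNAA match lay 75 bases before the RefSeq start in Ltf, and in Ngp 138 and 11 bases before it. The stretches of Ltf (chr9:111019142-111019270, plus strand) and Ngp (chr9:110419658-110419746, plus strand) are shown for contrast with the protease genes above: they hold TTGCNNAA or its reverse complement, in capitals, and no GAGGAAG. In Ngp the match nearest the start lies within an exon of GENCODE M21 and is not shown.
Ltf: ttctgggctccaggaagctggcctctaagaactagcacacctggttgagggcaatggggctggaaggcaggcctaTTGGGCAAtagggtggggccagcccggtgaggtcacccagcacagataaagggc
Ngp: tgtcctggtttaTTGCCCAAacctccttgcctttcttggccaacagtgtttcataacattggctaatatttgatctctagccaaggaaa

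Mmp8, which encodes neutrophil collagenase (chr9:7558456-7568485, plus strand), was lower in every knockout liver. It had 5.92, 3.45, 5.42 and 5.34 CPM in knockout livers, against 10.97, 9.92, 17.8 and 7.85 CPM in control livers. These came from 54 to 103 counts per knockout liver and 112 to 300 counts per control liver. The highest knockout value was below the lowest control value. Mmp8 was 2.31-fold lower, at 5.03 ± 1.08 CPM in knockout livers and 11.6 ± 4.31 CPM in control livers (SD, n = 4 each), a log2 fold change of -1.21 (SE 0.25, 95% interval -1.74 to -0.68, adjusted p = 0.00232). It was called in 15 of the 16 alternative fits, with log2 fold changes from -1.36 to -0.93, and not with erythroid marker level as a covariate, given below.

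The Mmp8 promoter held all 3 motifs: TTGCNNAA 19 bases before the RefSeq start, TAACNG at 56 bases and GAGGAAG at 220 bases. The 150 bases before that start (chr9:7558279-7558428, plus strand) are shown with the TTGCNNAA match in capitals, since Mmp8 was the gene of the 10 whose groups did not overlap.
Mmp8: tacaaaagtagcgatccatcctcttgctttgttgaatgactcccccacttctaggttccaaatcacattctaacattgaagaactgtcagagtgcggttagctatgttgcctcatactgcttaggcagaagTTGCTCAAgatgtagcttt

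Mmp9, which encodes gelatinase B, the protein that gives tertiary granules their other name, was also lower. It had 9.22, 10.2, 7.43 and 10.9 CPM in knockout livers, against 11.2, 16.8, 22.8 and 18.4 CPM in control livers. The groups did not overlap, though knockout liver 278 and control liver 279 were close. The log2 fold change was -0.88 (SE 0.20, adjusted p = 0.00439), and Mmp9 kept its call in all 8 fits that left out 1 library. The difference of Mmp8 and Mmp9 within a liver, in log2 CPM, was -0.90 ± 0.48 in knockout livers and -0.59 ± 0.51 in control livers (SD, n = 4 each), and the groups overlapped.

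The calprotectin genes were not called. S100a8 (chr3:90668978-90670035, plus strand) had 71.8, 60.1, 48.3 and 75.6 CPM in knockout livers, against 61.2, 69.5, 86.6 and 80.1 CPM in control livers. S100a9 (chr3:90692632-90695721, minus strand) had 179, 130, 118 and 182 CPM in knockout livers, against 149, 156, 194 and 185 CPM in control livers. For both subunits knockout liver 277 was the lowest and control liver 281 the highest of the 8, and the groups overlapped. The log2 fold change was -0.22 for S100a8 (SE 0.14, 95% interval -0.52 to 0.09, adjusted p = 0.323) and -0.17 for S100a9 (SE 0.15, 95% interval -0.50 to 0.16, adjusted p = 0.482).

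Much of the spread was shared among genes within a liver. Knockout liver 277 was the lowest of the 8 livers for 8 of the 10 genes, all but Ctsg and Mmp8. Control liver 281 was the highest for 5 genes, namely Ltf, Ngp, Mmp8, S100a8 and S100a9, and the lowest for Ctsg. Knockout liver 276 was the highest for Mpo and Prtn3 and the lowest for Mmp8, while Ctsg and Camp lay in the middle there. From the highest down, it ranked 2 of 8 for Elane and 7 of 8 for Ltf, Ngp, S100a8 and S100a9. The sum of the 10 genes was 787 ± 156 CPM in knockout livers (597 to 954) and 880 ± 115 CPM in control livers (782 to 1002).

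The stages were then set against each other within each liver. The mean log2 CPM of the 4 primary granule genes minus that of the 3 secondary granule genes was -3.21, -2.45, -3.02 and -2.82 in knockout livers, against -3.07, -3.29, -3.68 and -2.87 in control livers. Knockout livers 276 and 278 were above every control liver, and knockout livers 275 and 277 fell among the control livers. The balance averaged -2.87 ± 0.33 in knockout livers and -3.23 ± 0.34 in control livers (SD, n = 4 each), a difference of 0.36, about 1 SD of either group. It was 0.60 with Mmp8 added to the secondary genes, and 0.21 without knockout liver 276 or without control liver 281. No p is given for a balance built from chosen genes.

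Differences within single pairs of genes also overlapped between groups. Mpo and Ltf are a primary and a secondary gene, while Mmp8, shown apart, is not a primary gene. Mpo minus Ltf, in log2 CPM, was -1.23 ± 0.44 in knockout livers and -1.78 ± 0.39 in control livers, a difference of 0.55. The size of this difference rests on the choice of Ltf, the only secondary gene called lower. Ltf had a log2 fold change of -0.44, beside 0.13 for Camp and -0.12 for Ngp. Mmp8 minus Ltf was -4.84, -5.40, -4.56 and -5.08 in knockout livers, against -4.09, -4.19, -3.85 and -4.90 in control livers. Here 3 control livers lay above every knockout liver and control liver 282 fell among the knockout livers, and the difference of means was -0.72. Summed by stage, primary granule genes came to 111 ± 36.2 CPM in knockout livers and 96.3 ± 23.5 CPM in control livers, and secondary granule genes to 454 ± 90.6 CPM in knockout livers and 527 ± 75.6 CPM in control livers.

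**Figure D2:**
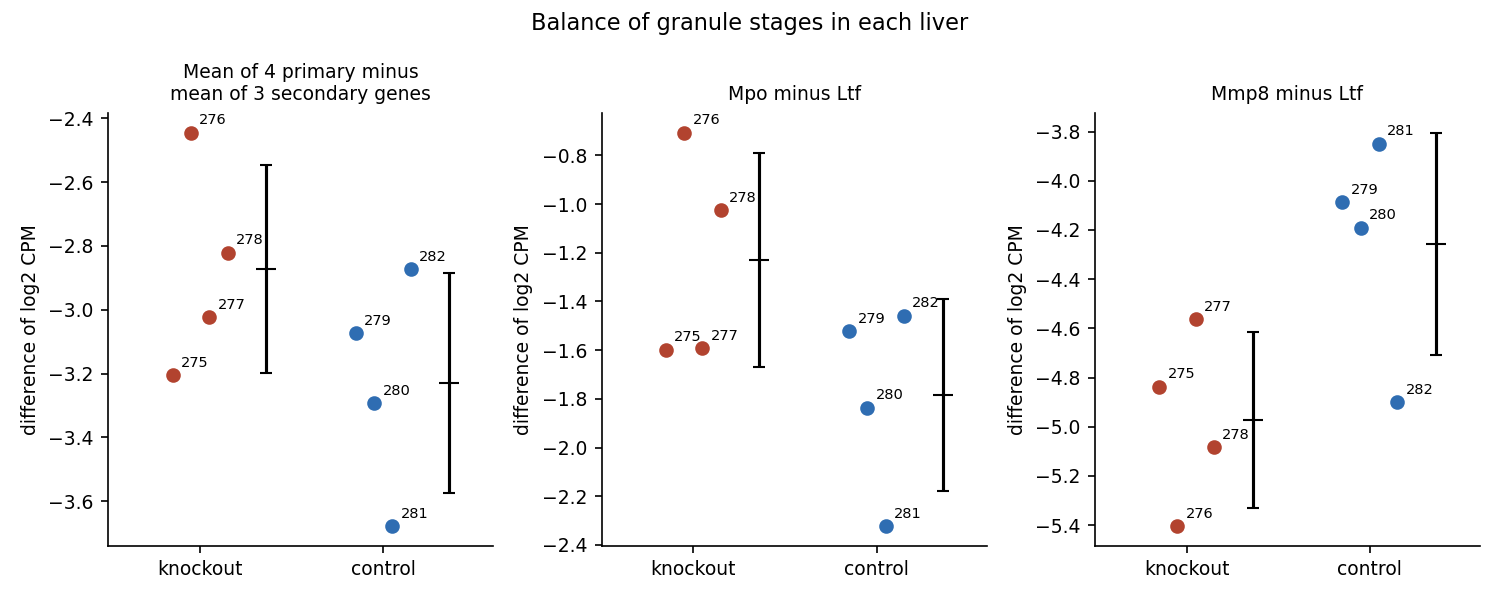
Balance of granule stages in each liver, as differences of log2 CPM (prior count 2), for the mean of 4 primary minus the mean of 3 secondary genes, Mpo minus Ltf and Mmp8 minus Ltf. Red points are knockout livers and blue points control livers, with animal numbers, and black marks give the group mean and SD. The groups overlap in each panel, with means of -2.87 and -3.23, -1.23 and -1.78, and -4.97 and -4.26 for knockout and control livers.

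Levels were compared between genes per kilobase of exon. S100a9 was the most abundant, at 291 ± 63.2 CPM per kb in knockout livers and 327 ± 42.0 CPM per kb in control livers. Ngp followed at 197 ± 40.9 CPM per kb in knockout livers and 213 ± 26.3 CPM per kb in control livers, and then S100a8, Camp and Ltf, which keep that order in both groups. The primary granule genes were lower: Mpo was at 20.7 ± 7.21 and Elane at 21.5 ± 7.32 CPM per kb in knockout livers, against 18.6 ± 4.85 for Mpo and 15.6 ± 3.18 for Elane in control livers, so these neighbours did not differ beyond their spread. Prtn3 was next, at 8.72 ± 3.17 CPM per kb in knockout livers and 7.67 ± 1.89 in control livers. Ctsg and Mmp8 were the lowest of the 10, with Mmp8 at 2.08 ± 0.447 CPM per kb and Ctsg at 4.00 ± 0.313 in knockout livers, against 4.80 ± 1.78 for Mmp8 and 3.87 ± 1.46 for Ctsg in control livers.

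The genes whose log2 CPM followed each stage most closely over the 8 livers were partly known neutrophil genes. Nearest to the primary mean were Gm10059, Gm31166, Sdr39u1, Ms4a3 and Gm38342 (Pearson r from 0.97 down to 0.92, among 16697 genes). Ms4a3 is a marker of granulocyte-monocyte progenitors. Nearest to the secondary mean were Olfm4, Ikzf5, BC100530, Stfa3 and Gm5483 (r from 0.99 down to 0.94), of which Olfm4 encodes a secondary granule protein and BC100530 and Stfa3 belong to the stefin A cluster. Stefin A genes are near-identical copies, so their counts are uncertain. After each genotype's mean was subtracted, these r values were 0.93 to 0.99. Counts were low for Ikzf5 (12 to 26 per liver), Gm31166 (10 to 32) and Gm38342 (11 to 38). The libraries share tissue and genotype, the genes were searched for, and the r values are a description. None of these 10 genes was called between genotypes. They were chosen to follow stage means that themselves overlapped between groups, so this is not a separate result.

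Other genes of the lineage were taken from 8 lists, 82 genes in all, of which 77 passed the filter, 20 were called higher and 5 lower. The counts of each list below are to be read beside the 9.27% of all genes tested that were called higher and the 11.4% called lower; a list of about 10 genes with 1 call in a direction is near that background. Among other primary granule and promyelocyte genes, 3 of 9 tested were called higher and 0 lower, with a median log2 fold change of 0.26. These were Cd63, a granule membrane tetraspanin (61.8 ± 4.78 CPM in knockout livers and 32.8 ± 4.18 CPM in control livers, log2 fold change 0.92, adjusted p = 1.39e-05), Ctsc, the protease that activates the granule serine proteases (89.2 ± 7.94 and 57.9 ± 8.24 CPM for knockout and control livers, 0.62, 3.89e-04), and the hexokinase gene Hk3 (0.78, 8.36e-04). All 3 are also expressed in macrophages, whose part in these calls was not tested. Ms4a3 and the serine protease gene Prss57, which are narrower markers of early granulocyte precursors, were at 0.02 and 0.38 and not called, and Bpi had 0 counts in every liver.

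Among other secondary granule genes, 4 of 11 were called higher and 0 lower, with a median of 0.03. Cybb and Cyba, the membrane subunits of the phagocyte NADPH oxidase, had log2 fold changes of 0.53 (adjusted p = 7.24e-04) and 0.44 (0.00828). Hp, the haptoglobin gene that hepatocytes express strongly, was at 2556 ± 303 CPM in knockout livers and 1812 ± 166 CPM in control livers (0.50, 0.00187). Itgb2l, an integrin gene, was at 0.51 (0.0324) and lost its call without knockout liver 276, 277 or 278 or without control liver 280 or 282 (0.41 to 0.60 over the fits that left out 1 library). Lcn2, which encodes the siderophore-binding lipocalin of these granules, was at 63.5 ± 8.86 CPM in knockout livers and 70.4 ± 9.98 CPM in control livers and was not called (-0.15, SE 0.12, adjusted p = 0.408). Olfm4, Cd177 and Lyz2 were not called either.

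Among 7 tertiary granule genes, 2 were called higher and 1, Mmp9, lower, with a median of -0.04. The metal transporter gene Slc11a1, which macrophages also express, was at 34.6 ± 2.13 CPM in knockout livers and 18.5 ± 2.55 CPM in control livers (log2 fold change 0.90, adjusted p = 5.83e-05). The Fc receptor chain gene Fcer1g was at 0.41 (0.0403) and lost its call without any 1 of 6 livers, knockout 275, 276 and 278 and control 279, 280 and 282. Its call was also lost with weighted limma-voom. The membrane protease gene Mmp25 was at -0.82 and not called (SE 0.39, adjusted p = 0.157). Ptafr went the other way, at 0.79, and was not called (adjusted p = 0.0546). It was called without knockout liver 277, with library size alone and with DESeq2. Adam8 (-0.04) and the integrin gene Itgam (-0.07) were not called.

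**Figure D3:**
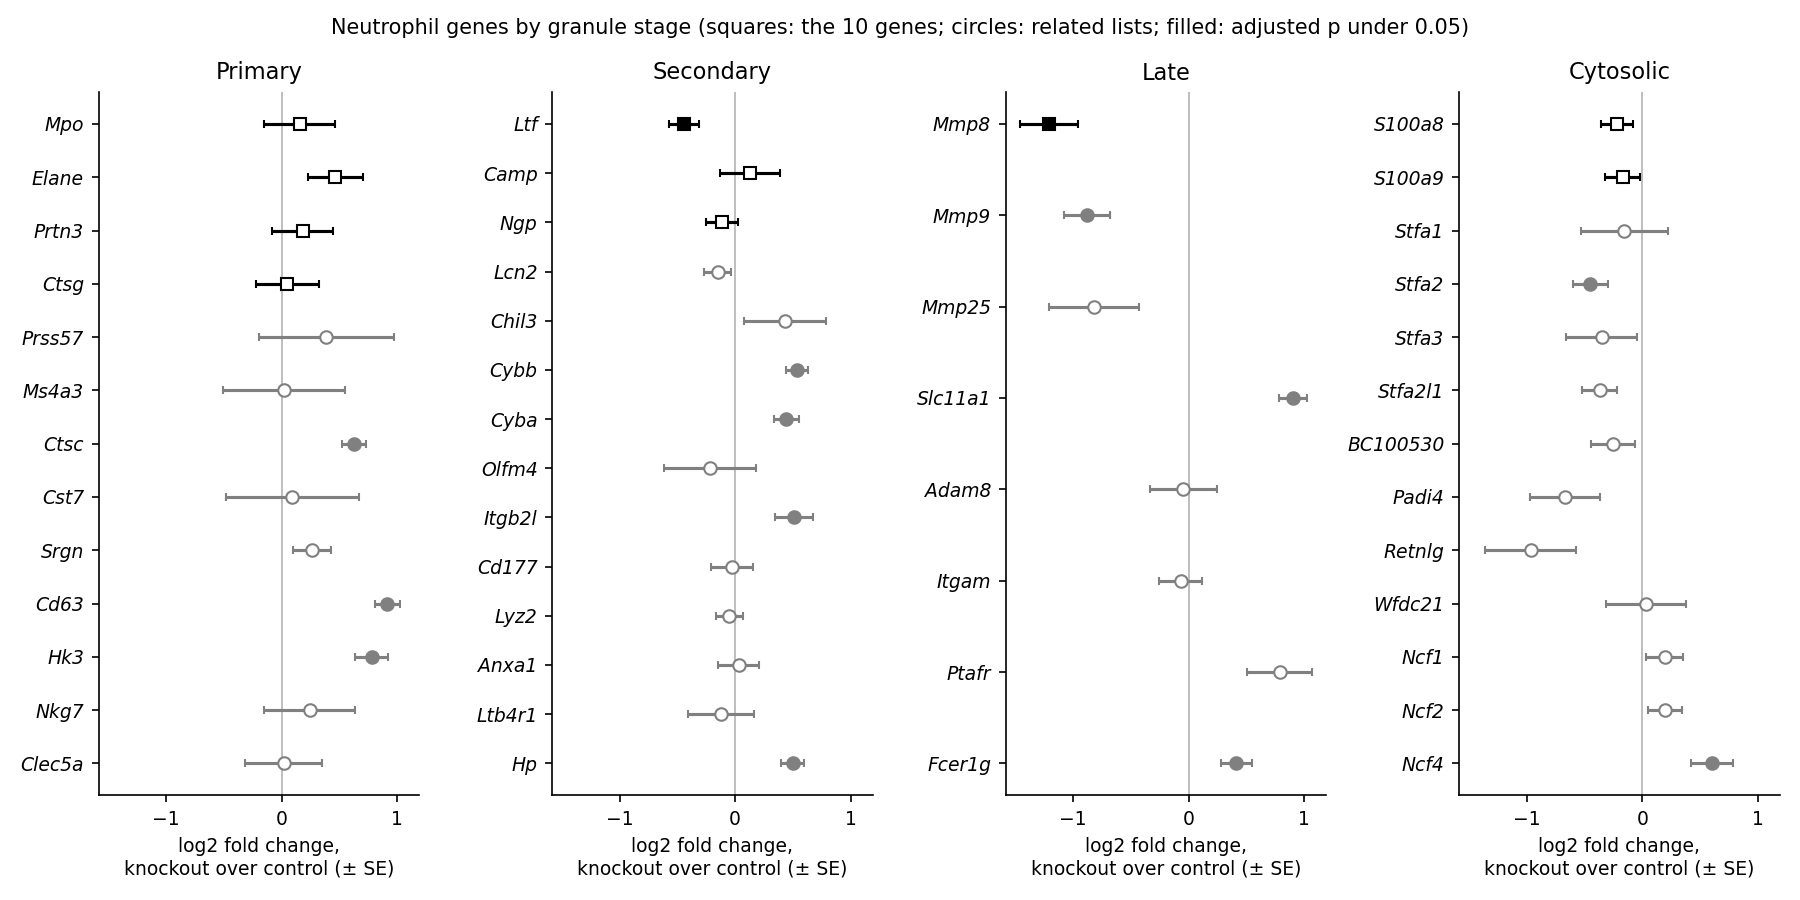
Log2 fold change, knockout over control, with its SE (horizontal axis) for the 10 genes (squares) and for genes of related lists (circles), by granule stage; filled symbols have an adjusted p under 0.05. Ltf and Mmp8 are the filled squares, both left of 0, at -0.44 and -1.21. Filled circles to the right of 0 include Cd63, Ctsc, Cybb and Slc11a1, and Mmp9 is filled at -0.88.

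Of 9 tested genes for receptors of secretory vesicles and mature neutrophils, 1 was called higher and 0 lower, with a median of 0.23. It was Fcgr3, an Fc receptor gene of several myeloid cells (23.9 ± 3.27 CPM in knockout livers and 12.1 ± 2.45 CPM in control livers, log2 fold change 0.98, adjusted p = 2.90e-04). Csf3r, the receptor for G-CSF, was at 11.4 ± 2.63 CPM in knockout livers and 7.58 ± 2.61 CPM in control livers and was not called (0.59, SE 0.25, adjusted p = 0.113), though it was without control liver 281 (0.78, 0.0488) and with no low-count filter (0.59, 0.0299). Cxcr2, the chemokine receptor by which mature neutrophils leave the marrow, was at 3.50 ± 0.919 CPM in knockout livers and 4.16 ± 0.854 CPM in control livers (-0.25, SE 0.27, adjusted p = 0.575).

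Among 11 stefin A and other cytosolic genes of neutrophils, 1 was called higher and 1 lower, with a median of -0.25. Ncf4, a cytosolic oxidase subunit, was at 0.60 (adjusted p = 0.0266) and lost its call without knockout liver 275 or 276 or control liver 280, 281 or 282. The stefin Stfa2 was at -0.45 (0.0423) and kept its call in 1 of 8 fits that left out a library, the one without control liver 279, and not with library size alone. Retnlg and Padi4, genes of late neutrophils, were at -0.97 (SE 0.39, adjusted p = 0.0943) and -0.67 (SE 0.30, 0.135), and each was called without control liver 280 (-1.20 and -0.87).

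Of 11 tested regulators of granulopoiesis, 4 were called higher and 1 lower, with a median of 0.33. Csf2rb, the shared receptor chain for GM-CSF and related cytokines, was at 70.0 ± 7.97 CPM in knockout livers and 28.4 ± 2.52 CPM in control livers (log2 fold change 1.30, adjusted p = 7.25e-07). Cebpd (0.79, 0.00219), Spi1, which encodes PU.1 (0.56, 0.00598), and Cebpb (0.45, 0.0104) were the other 3, and the C/EBP genes are expressed in hepatocytes as well. Gfi1b, which acts in red cell and platelet precursors, was lower at 3.48 ± 2.06 CPM in knockout livers and 14.4 ± 3.14 CPM in control livers (-2.04, 0.00166). The regulators most tied to granule stages were not called: Cebpe, needed for secondary granule genes, was at 5.06 ± 1.74 CPM in knockout livers and 3.78 ± 1.87 CPM in control livers (0.41, SE 0.36, adjusted p = 0.470), and Gfi1 at 2.77 ± 0.441 and 2.38 ± 1.24 CPM for knockout and control livers (0.23, SE 0.35, 0.709).

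Of 9 tested signals that retain or recruit neutrophils, 3 were called higher and 1 lower, with a median of 0.18. The adhesion gene Icam1 was at 55.7 ± 6.88 CPM in knockout livers and 30.9 ± 5.52 CPM in control livers (log2 fold change 0.85, adjusted p = 1.46e-04). Cxcl1, a neutrophil-attracting chemokine, was at 40.2 ± 27.4 CPM in knockout livers and 6.62 ± 2.21 CPM in control livers (2.60, SE 0.58, 0.0226). Cxcl1 lost its call without knockout liver 276 or control liver 279, 280 or 282, and with weighted limma-voom. Vcam1 was at 0.30 (0.0192), lost without knockout liver 277 or control liver 280. Cxcl12, the chemokine that holds neutrophil precursors in place, was lower, at 251 ± 19.6 CPM in knockout livers and 333 ± 32.2 CPM in control livers (-0.41, SE 0.09, adjusted p = 0.00346).

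Among 10 inhibitors of neutrophil serine proteases, 2 were called higher and 1 lower, with a median of 0.08. A2m, the broad protease trap made by hepatocytes, was at 7.71 ± 2.09 CPM in knockout livers and 78.9 ± 26.6 CPM in control livers (log2 fold change -3.35, adjusted p = 3.07e-04). Serpinb6a was at 0.32 (0.0391), lost without knockout liver 275 or 276 or control liver 279, 280 or 282. Slpi, which encodes an inhibitor of elastase and cathepsin G, was at 1.29 (0.0414) and kept its call in 1 of 8 fits that left out a library, the one without knockout liver 278. Without control liver 282, Serpina1a was called lower as well; it is 1 of 5 near-identical alpha-1 antitrypsin copies, whose counts are uncertain.

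Markers of other cells were read beside these results. Myo5b itself was at 49.3 ± 7.06 CPM in knockout livers and 133 ± 33.1 CPM in control livers. All 15 erythroid markers were lower, with a sum of 671 to 1357 CPM in knockout livers and 2650 to 3772 CPM in control livers. All 10 proliferation genes were lower (789 to 1149 CPM in knockout livers and 2050 to 2636 CPM in control livers). Of 10 Kupffer cell markers 9 were higher and 0 lower (1441 to 1666 CPM in knockout livers and 765 to 925 CPM in control livers). Of 8 leukocyte-wide genes 5 were higher (304 to 398 CPM in knockout livers and 232 to 321 CPM in control livers), 3 without knockout liver 275 or 278 or control liver 279 or 280, and Ptprc, the CD45 gene, was at 0.55 (adjusted p = 0.0102). The part of these cells in the results of the granule genes was not tested, and the erythroid covariate below cannot separate erythroid level from genotype. The same holds for the related lists, with Csf2rb, Spi1, Cybb and Cyba among them.

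Eosinophil genes, from the other main granulocyte lineage, were not called: 0 of 8 passed the threshold, with a sum of 88.0 to 125 CPM in knockout livers and 62.8 to 104 CPM in control livers. Epx, which encodes eosinophil peroxidase, was at 16.6 ± 4.68 CPM in knockout livers and 15.1 ± 4.30 CPM in control livers (log2 fold change 0.14, SE 0.23, adjusted p = 0.740). Basophil and mast cell genes summed to 3.71 to 5.05 CPM in knockout livers and 4.83 to 9.26 CPM in control livers, near 0 beside the 10 genes. Of 8 megakaryocyte genes 4 were lower and 0 higher, 2 with library size alone and without knockout liver 276 or 277 or control liver 279 or 282. Of 10 B cell precursor genes 1, Cd79b, was higher and 4 lower, and 2 were lower with DESeq2 or with a floor of 1 CPM in 4 libraries. Cd79b lost its call without knockout liver 275, 276 or 278 or control liver 279, 280 or 281, and with weighted limma-voom. Stem and progenitor genes had 1 of 8 higher and 1 lower, monocyte genes 1 of 7 tested higher, 2 without control liver 282 and with no low-count filter, and 1 lower, and hepatocyte genes 1 of 10 higher and 2 lower. Monocyte markers summed to 5884 to 8002 CPM in knockout livers and 8380 to 10563 CPM in control livers, a sum set mainly by Fn1, the fibronectin gene that hepatocytes also express (6469 ± 1009 CPM in knockout livers and 9153 ± 980 CPM in control livers). Hepatocyte markers summed to 77896 to 91797 CPM in knockout livers and 101844 to 128508 CPM in control livers, and neither sum overlapped between groups. The hepatocyte genes called lower were Alb (log2 fold change -1.08) and Ttr (-0.97). Ahsg was called higher (0.37), the other 7 were not called, and the median of the hepatocyte list was -0.02.

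**Figure D4:**
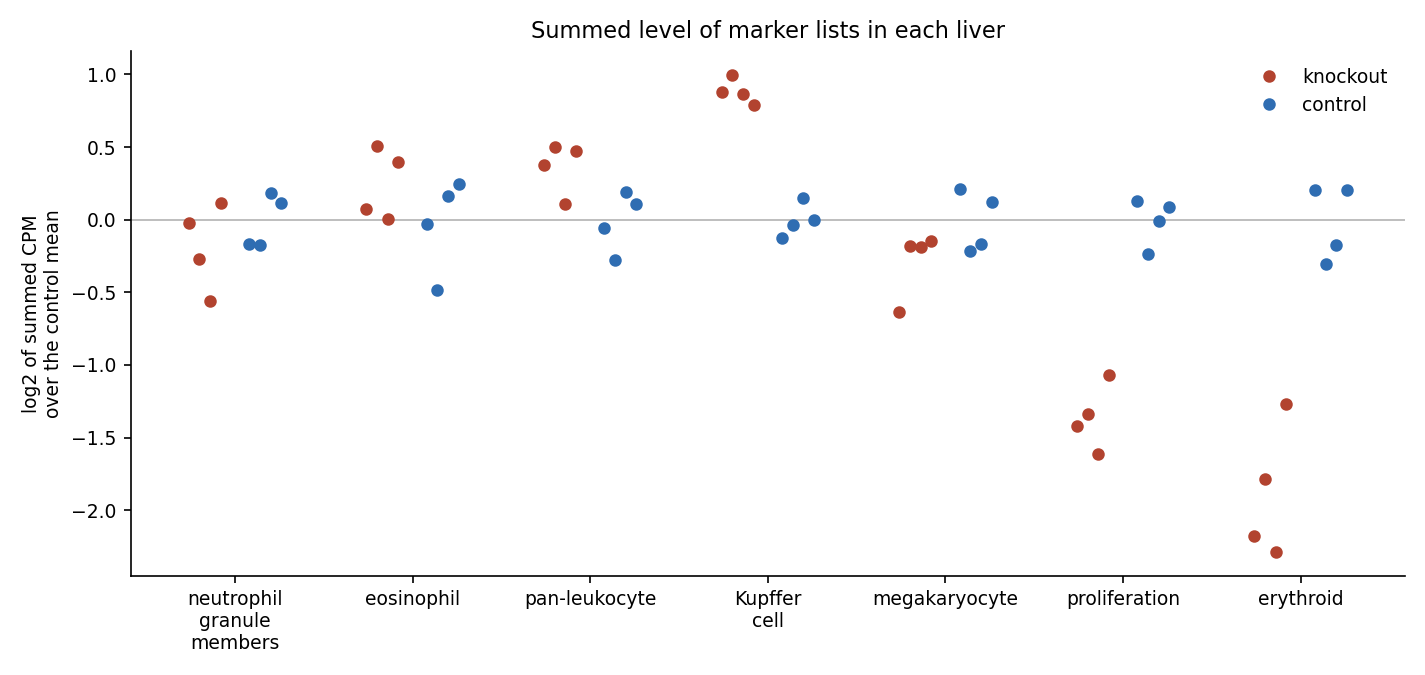
Summed CPM of the 10 genes and of 6 marker lists in each liver, as log2 over the mean of the control livers (vertical axis). Red points are knockout livers and blue points control livers, in order of animal number. The sums of the 10 genes overlap between groups (597 to 954 CPM in knockout livers and 782 to 1002 CPM in control livers), while the Kupffer cell, proliferation and erythroid sums are separate.

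When the mean log2 CPM of the erythroid markers was added to the fit as a covariate, 0 of the 10 genes and 0 of the 77 related genes were called. That covariate had a correlation of -0.95 with genotype and raised the genotype term's variance 9.46-fold, so genotype and erythroid level cannot be told apart in it. Under it Mmp8 was at -1.65 (SE 0.77, adjusted p = 0.580) and Ltf at 0.064 (SE 0.37, 0.988), and Ngp (0.35), S100a8 (0.24) and S100a9 (0.28) also turned positive, which left Mmp8 the only one of the 10 below 0. Mpo was at 1.98 (SE 0.54, adjusted p = 0.313), Elane at 1.85 (SE 0.52, 0.229) and Prtn3 at 2.11 (SE 0.56, 0.177), values above 0 in a fit that called none of them.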

How the data were processed

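Per the labels, RNA was extracted from whole livers with Trizol and a column kit, reads were aligned with Rsubread 2.20.0 (BiocManager 1.30.26, R 4.4.1) and, per the submitters' processing notes, counted with featureCounts; the build, written GRMm38, is read as GRCm38. The deposited table holds whole-number counts per Ensembl gene. The annotation, the strand setting and the handling of multiply mapped reads: not given in the sources used here. The authors' own test used DESeq2 1.46.0, per the series' design text, and none of its values is used.

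In R 4.3.3, the counts were fitted by edgeR 4.0.16 with filterByExpr (minimum count 10, minimum total 15), TMM scaling, robust quasi-likelihood F-test of 4 knockout against 4 control libraries with no covariate, and Benjamini-Hochberg adjustment over all 18274 genes. The scripts were tested on simulated data. Log2 CPM use a prior count of 2, and 95% intervals use the test's degrees of freedom. Within groups, every pair of libraries differed beyond sampling noise (chi-square per degree of freedom 11.9 to 21.8). Replicate numbers are animal numbers and none is shared between groups, so nothing was paired.

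The 10 genes and all lists were chosen with earlier results of these data known. Named genes are the 10, the 2 called genes with the smallest p in each related list, the 5 genes most like each stage (mean of at least 1 CPM), and Mmp9, Lcn2, Cebpe, Gfi1, Cxcr2, Csf3r, Cxcl12, Epx, Ptprc, Mki67 and Myo5b. Other genes of the lists were named after their values were seen. The values of 1 gene of the lists are not reported here. Alternatives were DESeq2 1.42.0, weighted limma-voom (3.58.1), non-robust dispersion, median-ratio scaling, library size alone, no filter, a floor of 1 CPM in 4 libraries, an erythroid covariate and each library left out; for the stage balance, Mmp8 added, a prior count of 0.5, library size alone and summed CPM. Figures used matplotlib 3.10.9.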

Additional observations from a re-analysis of the deposited data

Results flagged for a closer look

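In 88 combinations of a gene and a group, 5 had 1 liver far from the other 3 by Dixon's criterion, which chance alone meets in about 1 in 20. Control liver 282 stood above the other control livers in 4 of them: Ctsg (6.24 CPM, others 3.03 to 3.51), Ms4a3 (7.22 CPM, others 1.54 to 2.15), Gm38342 (2.45 CPM, others 0.712 to 0.804) and Gm31166 (1.61 CPM, others 0.844 to 0.891). Ms4a3, Gm38342 and Gm31166 were named for following the primary granule genes over the same livers, so these 4 are not independent of one another. In knockout liver 277, Hp was at 2105 CPM, below the other 3 at 2667 to 2751 CPM.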

How the results depend on the processing

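Of 150 values of the 10 genes in alternatives other than the erythroid covariate, 137 kept their direction and their side of the threshold. Another 7, of Ltf and Elane, changed side and are given above, and 6 changed sign without being called, all when 1 library was left out: Mpo (log2 fold changes from -0.0048 to 0.34 over those fits), Ctsg (-0.065 to 0.34) and Camp (-0.046 to 0.29). So did Epx (-0.061 to 0.26), Gm10059 (-0.031 to 0.23), Ms4a3 (-0.22 to 0.77), Gm38342 (-0.098 to 0.90) and Olfm4 (-0.41 to 0.025). The number of the 10 genes called higher was 1 with no low-count filter and 0 to 1 when 1 library was left out. The number called lower was 1 with library size as the only scaling, 0 with the erythroid covariate and 1 to 2 when 1 library was left out. With that covariate 0 related genes were called higher and 0 lower, and 4 of the 5 genes below 0 changed sign, all but Mmp8: Ltf (0.064), Ngp (0.35), S100a8 (0.24) and S100a9 (0.28). Of the other named genes Lcn2 (0.030), Cxcr2 (0.69), Olfm4 (0.57), Ikzf5 (0.59), BC100530 (0.73) and Stfa3 (0.92) did so too, none of them called. The primary minus secondary difference was 0.21 to 0.47 when 1 library was left out, 0.36 with a prior count of 0.5, 0.35 with library size alone and 0.40 from summed CPM. The median log2 fold change over all genes was 0.01, and 0.08 with library size alone and -0.11 with no filter. No paired analysis was possible because the groups share no replicate number. The low counts of Mmp8, and 4 livers per group, limit the precision, and the causes of these shifts were not tested.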
